A study of Homo sapiens with 2 samples.

Results

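A set of 40 genes of glucose breakdown and of the low-oxygen response were followed in the human multiple myeloma line MM.1S, cultured with plasmacytoid dendritic cells (pDCs) or alone. The set holds 20 glycolytic enzymes, 6 enzymes of the pentose phosphate pathway, and 14 targets and regulators of hypoxia-inducible factor (HIF). A gene was measured by the probe sets that the annotation of the Affymetrix HG-U133 Plus 2.0 array gives to that symbol alone. Of the 40 genes, 39 had such a probe set, out of 19775 genes on the array, and they had 89 probe sets out of 41091. CA9 was not analysed here. A single array was made from total RNA of MM.1S cells cultured with pDCs, the blood cells that release large amounts of type I interferon on viral infection, and another from MM.1S cells cultured alone. Both groups thus come from 1 cell line, with n = 1 array each, so none of the values can carry a replicate error and no test was possible. The source of the pDCs, the cell ratio, the length of the culture and whether pDCs were removed before RNA extraction is not stated in the labels.

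Glycolysis turns glucose into pyruvate and a little ATP, and lactate dehydrogenase then reduces pyruvate to lactate. The pentose phosphate pathway branches off after the first step and supplies NADPH and ribose for nucleotides. HIF is a transcription factor whose alpha subunit is destroyed in oxygen after hydroxylation by the EGLN enzymes, and in low oxygen it raises most glycolytic enzymes together with genes such as VEGFA, ADM and ANKRD37. Myeloma cells grow in the bone marrow, where oxygen is low, and like many tumour cells they use glycolysis also when oxygen is present.

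HIF binds the core letters ACGTG or GCGTG. The promoters below are shown because ANKRD37 and PFKFB3 were the members at least 2-fold lower in co-culture, while LDHA, a textbook HIF target with several such cores, differed little. Each is the 250 bases before a RefSeq transcription start on the plus strand of GRCh38.p14, 5′ to 3′, at chr4:185396591-185396840 for ANKRD37, chr10:6202682-6202931 for PFKFB3 and chr11:18394313-18394562 for LDHA. Capitals mark ACGTG or GCGTG on either strand. For PFKFB3 and LDHA, which have 2 windows each, the window with more matches is printed.
ANKRD37: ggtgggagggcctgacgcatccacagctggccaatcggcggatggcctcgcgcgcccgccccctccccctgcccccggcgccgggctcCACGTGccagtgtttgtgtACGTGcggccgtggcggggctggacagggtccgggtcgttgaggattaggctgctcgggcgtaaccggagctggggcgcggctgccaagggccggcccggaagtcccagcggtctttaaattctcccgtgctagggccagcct
PFKFB3: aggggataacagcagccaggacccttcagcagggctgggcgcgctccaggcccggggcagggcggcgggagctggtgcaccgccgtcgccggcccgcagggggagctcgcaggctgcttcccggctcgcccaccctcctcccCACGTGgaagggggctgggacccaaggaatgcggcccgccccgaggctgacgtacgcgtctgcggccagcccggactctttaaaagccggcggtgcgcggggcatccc
LDHA: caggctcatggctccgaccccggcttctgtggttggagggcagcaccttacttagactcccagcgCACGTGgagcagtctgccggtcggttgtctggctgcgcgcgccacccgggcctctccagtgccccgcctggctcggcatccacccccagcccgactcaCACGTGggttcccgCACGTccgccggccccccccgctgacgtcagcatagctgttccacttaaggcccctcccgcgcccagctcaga
The letters CACGTG hold ACGTG on both strands and count as 2 matches, so ANKRD37 had 3 matches, PFKFB3 had 2 and LDHA had 5. HK1, the member at least 2-fold higher, had a match in 1 of its 7 windows. Promoter windows were found for 36 members, and 34 of their 60 windows held a match (56.7%), against 43.2% of all 35116 windows of this length. The share was 22 of 40 windows for glycolytic enzymes, 2 of 6 for pentose phosphate enzymes and 10 of 14 for HIF targets and regulators. A match in these letters is not evidence of binding.

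The 3 groups differed little between the arrays, and 34 of the 37 members with a ratio were within 2-fold. HK1 was 2.26-fold higher in co-culture, PFKFB3 was 2.26-fold lower and ANKRD37 2.04-fold lower. All ratios are log2 of the co-culture signal minus log2 of the signal in MM.1S cells alone, from the probe set of a gene with the highest mean log2 signal, after signals below the array median (115.9 in co-culture and 124.0 alone) were set to it. Of the 39 measured members, 37 were above this floor on both arrays, while EGLN3 and BNIP3 were below it on both. Among all 14408 genes above the floor on at least 1 array, 3.16% reached 2-fold on the higher side in co-culture and 4.51% on the lower side. The members had 1 higher (2.70%) and 2 lower (5.41%), shares near those of all genes. At 1.5-fold, 2 members were higher and 4 lower, where 11.5% and 15.3% of all genes were. In bulk RNA, a change in the number of cells of a type and a change in RNA per cell cannot be told apart.

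**Figure D1:**
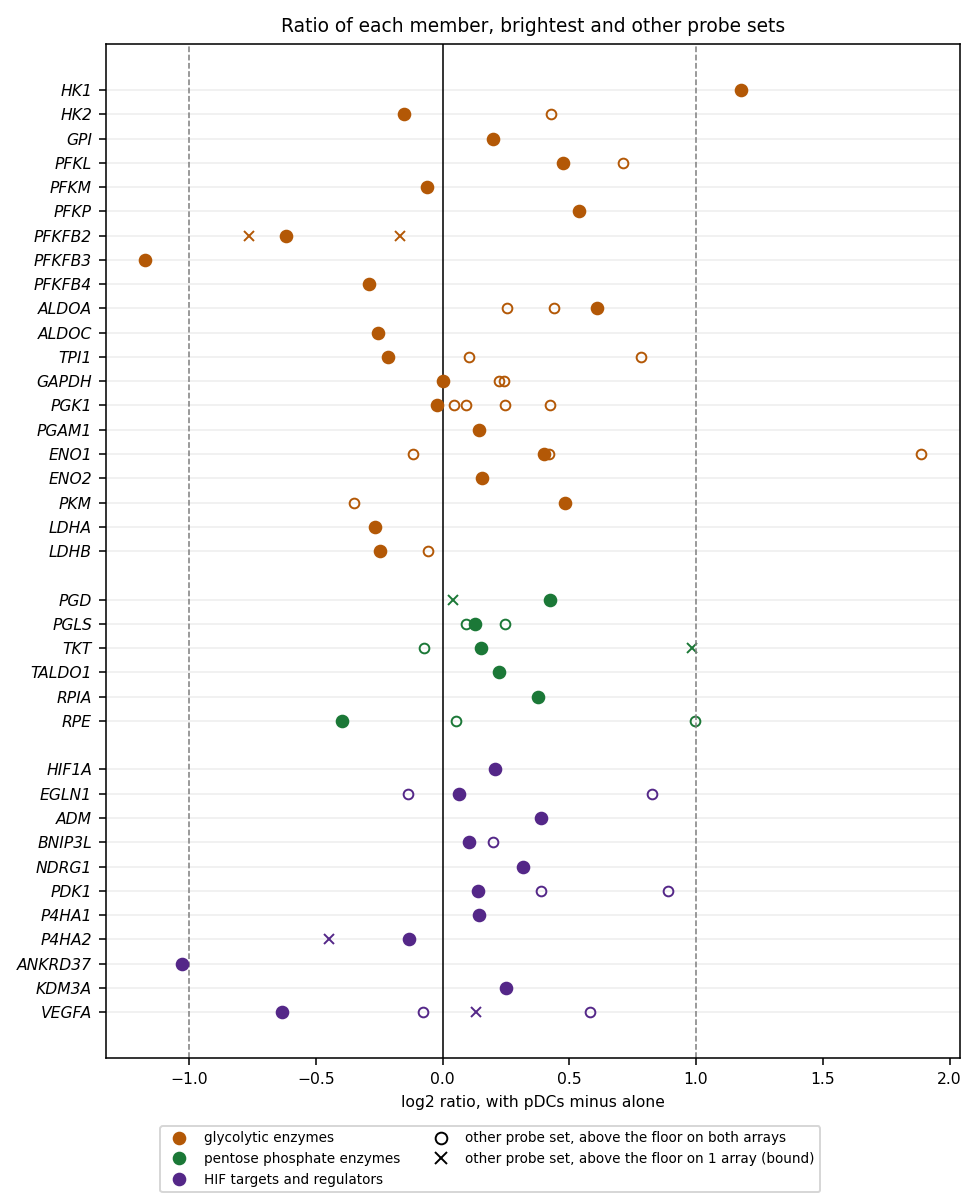
Log2 ratio of co-culture minus MM.1S alone (x axis) for each of 37 members, ordered by pathway step within 3 coloured groups. Filled points are the brightest probe set, open circles other probe sets with both signals above the floor and crosses bounds from probe sets above it on 1 array; dashed lines mark 2-fold. HK1 at 1.18, PFKFB3 at -1.18 and ANKRD37 at -1.03 are the filled points beyond the lines, and the ENO1 circle at 1.89 is the farthest point.

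The mean after trimming 2% at each end was 500.1 on both arrays. Scaling sets this mean, so it does not show that the arrays were alike. Their medians were 115.9 in co-culture and 124.0 alone. All 8 plasma cell markers were above the floor on both arrays, and their summed signal was 135396 in co-culture and 155860 alone. Of 12 pDC markers, the co-culture array had 7 above the floor and the array of MM.1S alone 8. Their summed signals were 5869 and 7783. CLEC4C, IL3RA and SPIB were below the floor on both arrays, and LILRA4, TCF4, GZMB, PTCRA, PACSIN1 and IRF8 above it on both. TLR7 passed it only in co-culture, and NRP1 and TLR9 only in MM.1S alone. Of 7 monocyte markers, 3 passed the floor in co-culture and 5 alone (summed signals 479.9 and 1545). Of 4 T cell markers 1 was above it on both arrays (229 and 281), and of 3 erythroid markers 2 were (6455 and 4702). The parts these markers have in the results were not tested. The 3′ to 5′ signal ratio of the array's control probe sets was lower in co-culture than alone, at 8.09 against 19.5 for ACTB and 2.46 against 3.07 for GAPDH.

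Glycolytic enzymes were balanced between the arrays. All 20 were above the floor on both arrays, 10 had a positive and 10 a negative ratio, and the median log2 ratio was -0.01, where the median of all genes was -0.04 and 47.7% of genes above the floor on both arrays were positive. Among them, 1 member was at least 2-fold higher and 1 at least 2-fold lower.

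Of the hexokinases in the set, which trap glucose in the cell as glucose phosphate, only HK1 was past 2-fold. HK1, the housekeeping form on the outer mitochondrial membrane, gave 575 in co-culture against 254 alone, a log2 ratio of 1.18 that ranked 251st from the top of 14408 genes. It rests on 1 probe set and was just under 2-fold (log2 ratio 0.998) when the floor was raised to the 70th percentile. HK2, the form that HIF and insulin induce, had 2268 in co-culture and 2521 alone (-0.15), and its only other probe set above the floor had 201.5 against 150.0 (0.43). The HK1 signal was thus the higher one in co-culture, while the HK2 probe sets above the floor disagreed in direction. GPI, which converts glucose phosphate to fructose phosphate, had 11110.3 against 9686 (0.20).

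Phosphofructokinase, the committed step, has 3 isoforms. The liver form PFKL had 1607 in co-culture against 1155 alone (0.48), and its other probe set had 1087 against 663 (0.71). The muscle form PFKM had 2944 against 3074 (-0.06). The platelet form PFKP was near the floor, at 182 against 125 (0.54), and its other probe set was below the floor on both arrays. Both PFKL probe sets were thus higher in co-culture without reaching 2-fold.

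The PFKFB enzymes, which make and break the sugar phosphate that switches phosphofructokinase on, were all lower in co-culture on their brightest probe set. PFKFB3, whose kinase activity far exceeds its phosphatase activity and which is a HIF target, had 482 in co-culture against 1088 alone, a log2 ratio of -1.18 that ranked 381st from the bottom. It rests on 1 probe set, of the s_at class, which can bind several transcripts. PFKFB2, the form of heart muscle, had 531 against 815 (-0.62), and 2 other probe sets, dimmer than the floor in co-culture, gave -0.76 or lower (54.1 against 197) and -0.17 or lower (46.7 against 130.1). PFKFB4 had 200.2 against 245 (-0.29). The fourth member of the family, PFKFB1, which is known from liver, had 112 against 273, a log2 ratio of -1.24 or lower, as its signal in co-culture was below the floor. PFKFB2, PFKFB3 and PFKFB4 each had a probe set above the floor on both arrays, and it was lower in co-culture. Probe sets above the floor only in MM.1S alone, those of PFKFB1 and the dimmer ones of PFKFB2, could give only a negative ratio. Below the floor on both arrays, further probe sets had 110.1 in co-culture against 87.1 alone for PFKFB2 and 36.7 against 16.2 for PFKFB4. The ratios of PFKFB2, PFKFB3 and PFKFB4 kept their sign under every alternative that gave them a value.

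**Figure D2:**
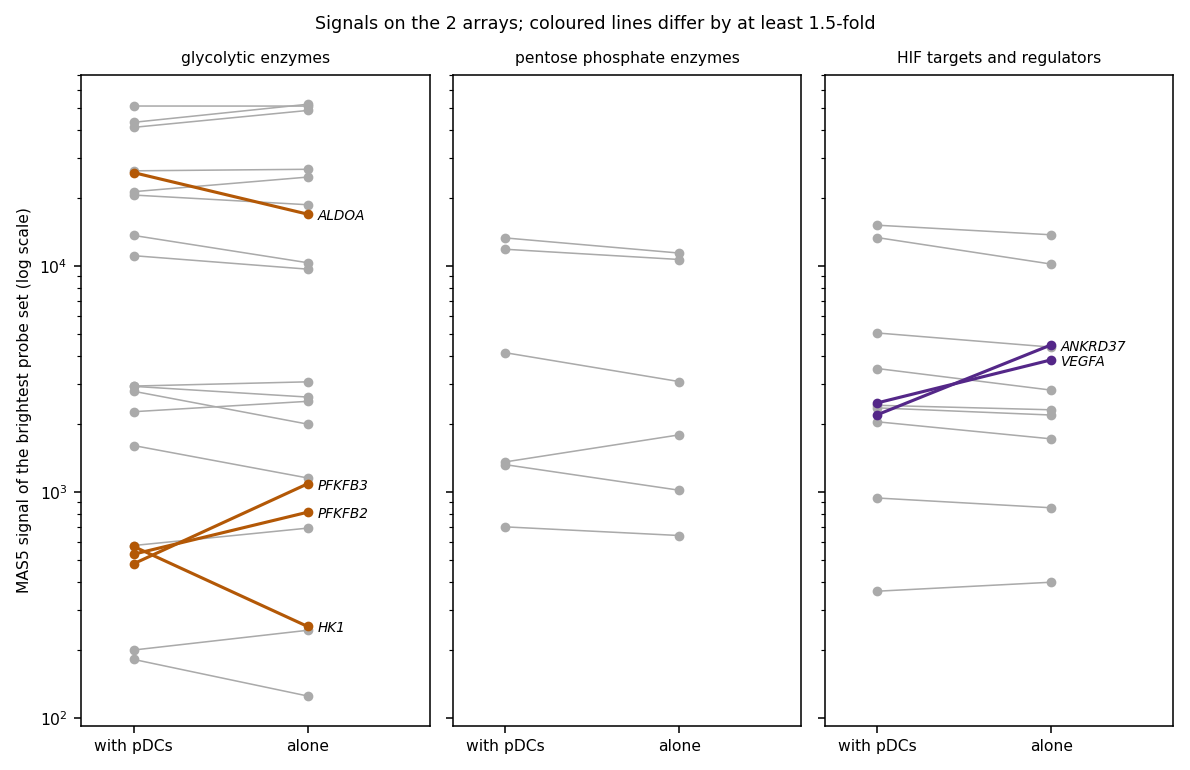
Signal of the brightest probe set on a log axis (y axis), with pDCs at the left and alone at the right of each panel, 1 line per member, for the 3 groups. Coloured lines differ by at least 1.5-fold: HK1 (575 against 254) and ALDOA (25895 against 16958) fall towards the right, and PFKFB3, PFKFB2, ANKRD37 and VEGFA climb towards it.

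Aldolase splits the sugar phosphate into a pair of trioses. ALDOA, the main form outside liver and brain, had 25895 in co-culture against 16958 alone (0.61, or 1.53-fold), and its other probe sets had 23487 against 17337 (0.44) and 2277 against 1909 (0.25). ALDOC, the brain form and a HIF target, had 580.4 against 693 (-0.26). All 3 ALDOA probe sets were higher in co-culture, though they are of a class that can also bind related transcripts. TPI1, which interconverts the trioses, had 21317 against 24735 on its brightest probe set (-0.21), 22809 against 21188 on the next (0.11) and 357 against 207 on the last (0.78). Its probe sets did not share a direction.

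GAPDH, PGK1 and PGAM1 were near equal on their brightest probe sets. GAPDH, which oxidises the triose and is a common reference gene, had 51001 in co-culture and 50975 alone (0.00). PGK1, the first ATP-making kinase, had 26363 and 26780 (-0.02). PGAM1, which moves the phosphate, had 20603 and 18666 (0.14). The dimmer probe sets of GAPDH and PGK1 were all higher in co-culture. They lay between 0.22 and 0.24 for the 2 of GAPDH and between 0.04 and 0.42 for the 4 of PGK1 that were above the floor. PGK1 was also positive after median centring, quantile normalization and loess.

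Enolase dehydrates phosphoglycerate. ENO1, the form of most tissues, had 13656 in co-culture against 10340.3 alone (0.40). Its other probe sets were far apart, with 3255 against 879 (1.89), 649 against 485 (0.42) and 150.5 against 163 (-0.12). ENO2, the neuronal form and a HIF target, had 2936 against 2633 (0.16). PKM, the last ATP-making enzyme, had 2793 against 1999 (0.48) on its brightest probe set and 228 against 290.0 (-0.35) on the other. Lactate dehydrogenases were slightly lower on all their probe sets. LDHA, the form that favours lactate, had 43201 against 51934 (-0.27). LDHB, the heart form, had 41041 against 48756 (-0.25) and 41985 against 43717 (-0.06). On their brightest probe sets, the 2 subunits of lactate dehydrogenase thus differed between the arrays to a like extent. The other LDHB probe set was nearer to equal.

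Pentose phosphate enzymes were mostly higher in co-culture by small amounts. All 6 were above the floor on both arrays, 5 had a positive ratio, the median log2 ratio was 0.19 and none passed 1.5-fold in either direction. Among all genes above the floor on both arrays 47.7% were positive, and the median of all genes was -0.04. Of the oxidative branch, PGD, which makes NADPH and ribulose phosphate, had 4136 in co-culture against 3081 alone (0.42), and its only other probe set above the floor, on 1 array, had at least 0.04. PGLS, the lactonase before it, had 702 against 643 (0.13), with 0.09 and 0.25 on the 2 others that passed the floor. With both signals over the floor, the brightest PGD probe set and those of PGLS were thus higher in co-culture. The dimmer PGD probe set passed only in co-culture, which favours a positive ratio, so it says little about direction. Dimmer still, and below the floor in either culture, PGD had 89.8 in co-culture against 24.9 alone, and PGLS had 104.5 against 109.2.

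In the non-oxidative branch, which links ribose phosphate back to glycolysis, TALDO1, the transaldolase, had 13311 in co-culture against 11407 alone (0.22). TKT, the transketolase, had 11859 against 10685 (0.15), while its other probe sets had -0.07 and at least 0.98 (245 against 108). RPIA, the ribose phosphate isomerase, had 1322 against 1019 (0.38). RPE, the ribulose phosphate epimerase, had 1360.3 against 1792 (-0.40) on its brightest probe set, 1278 against 1233 (0.05) on the next and 605 against 304 (0.99) on the dimmest of those above the floor. A probe set annotated to RPE and RPEL1 together, which was not used for either gene, had 141 against 315 (-1.16). The RPE probe sets pointed both ways, and RPE alone of the group had a negative ratio.

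HIF targets and regulators were also mostly higher by small amounts, with 1 exception past 2-fold. Of 11 members above the floor, 8 were positive, between 0.07 and 0.39, and 3 negative, with a median log2 ratio of 0.14. The share of positive ratios was 47.7% for all genes above the floor on both arrays, and the median of all genes was -0.04. ANKRD37, a small ankyrin repeat protein strongly induced by hypoxia, had 2198 in co-culture against 4482 alone (-1.03). Its only other probe set was below the floor on both arrays. Averaging both gave -0.56, but the other probe set entered this mean only with its signals set to the floor. VEGFA, the angiogenic growth factor, had 2480.3 against 3846 (-0.63) on its brightest probe set, 926 against 618 (0.58) on another, 442 against 466 (-0.08) on a further one, and at least 0.13 on the last. The VEGFA probe sets disagreed in direction.

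Of the regulators, HIF1A, the oxygen-sensitive subunit, had 5057 in co-culture against 4379 alone (0.21). EGLN1, the main HIF hydroxylase in normal oxygen and itself a HIF target, had 2421 against 2312 (0.07), with 0.83 and -0.13 on its other probe sets. EGLN3, the more strongly hypoxia-induced hydroxylase, had 56.0 against 51.9 and 54.3 against 52.8 on its 2 probe sets, all below the floor. Messenger RNA of HIF1A does not show HIF activity, as the protein is controlled by its breakdown.

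The remaining targets differed little. ADM, the vasodilator peptide adrenomedullin, had 13361 in co-culture against 10198 alone (0.39). NDRG1, a stress-response gene, had 3521 against 2825 (0.32). KDM3A, a histone demethylase, had 2047 against 1719.8 (0.25). For all 3 genes, 1 probe set was above the floor. PDK1, the kinase that keeps pyruvate out of the mitochondria, had 15154 against 13743 (0.14) and was higher on all 3 probe sets, with 0.39 and 0.89 on the dimmer ones. The collagen prolyl hydroxylase subunits had 0.14 for P4HA1 (942 against 853) and -0.13 for P4HA2 (364 against 399), whose only other probe set above the floor, on 1 array, had -0.45 or lower. Of the mitophagy receptors, BNIP3L had 2358 against 2192 (0.11), while BNIP3, a classical hypoxia gene, was below the floor on both arrays with 113 against 81.8 and 75.0 against 13.1.

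**Figure D3:**
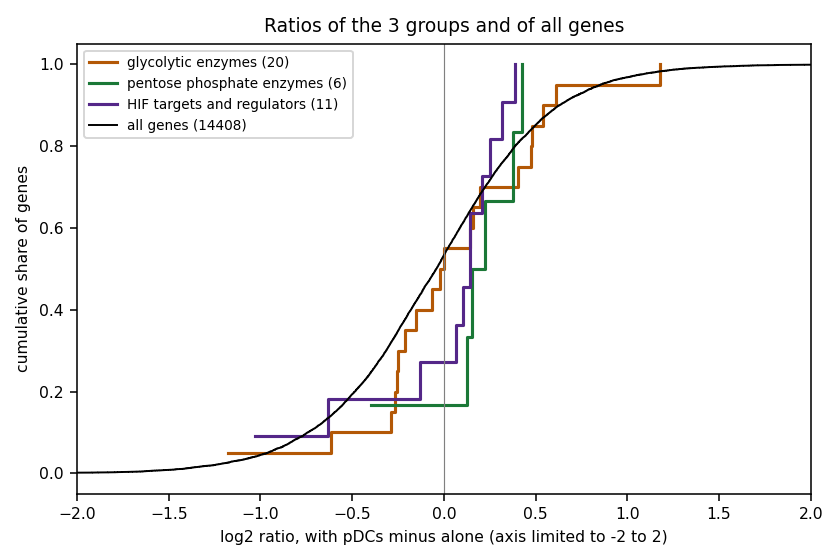
Cumulative share of genes (y axis) against the log2 ratio of co-culture minus MM.1S alone (x axis, limited to -2 to 2) for 20 glycolytic, 6 pentose phosphate and 11 HIF members and for 14408 genes above the floor on at least 1 array. The curves cross the middle of the y axis near the medians of -0.01, 0.19 and 0.14, against -0.04 for all genes.

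More than 1 probe set passed the floor on both arrays for 16 members, of which 9 had ratios of both signs and 7 of 1 sign. Counting every probe set that did, 46 of the members' 66 were higher in co-culture and 20 lower, with a median log2 ratio of 0.15, where 49.6% of all 19273 such probe sets were higher and the median was 0.00. The counts were 24 of 37 for glycolytic enzymes, 9 of 11 for pentose phosphate enzymes and 13 of 18 for HIF targets and regulators. Probe sets of 1 gene share its RNA and are not replicates. Of the 16 members, 13 had dimmer probe sets whose median ratio exceeded that of the brightest, and the median difference was 0.21. Among all 4844 genes of this kind the share was 54% and the median difference 0.05. The 3 members on the other side were ALDOA, PKM and TKT.

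The GAPDH control probe sets, which lie at set places along the transcript, also differed from each other in their ratio. The log2 ratio was 0.19 at the 3′ end (53924 in co-culture against 47332 alone), 0.36 in the middle (40940 against 31985) and 0.51 at the 5′ end (21876 against 15399). For ACTB it was 0.28, 1.25 and 1.55 in the same order. Both controls were thus higher in co-culture towards the 5′ end. Where the members' other probe sets lie on their transcripts is not given in the files, so the part of this difference in the ratios above was not tested.

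**Figure D4:**
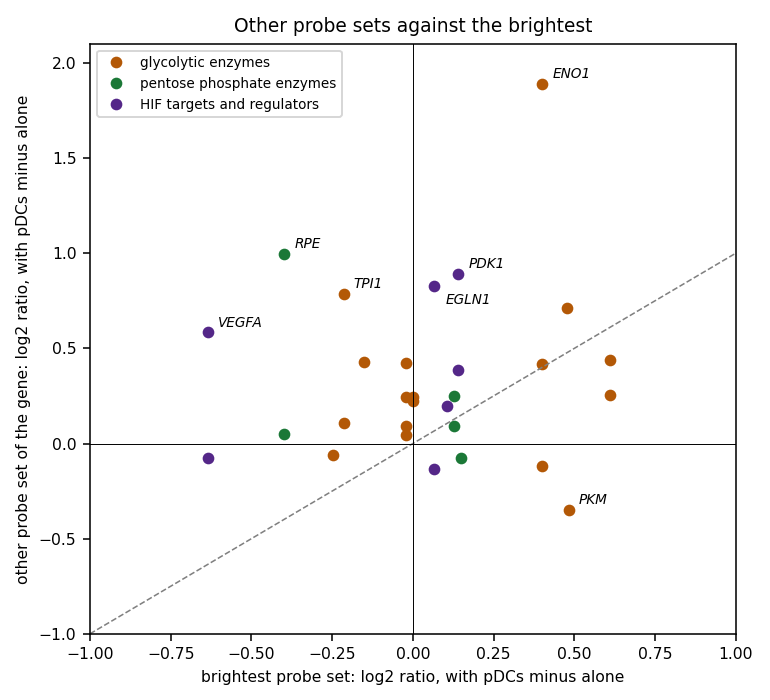
Log2 ratio (co-culture minus MM.1S alone) of each of 29 dimmer probe sets (y axis) against that of the brightest probe set of the same gene (x axis), for 16 members in 3 colours; the dashed line marks equal ratios. Of the 29 points, 23 lie above 0 on the y axis, and ENO1 at 1.89 lies farthest from the line.

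Other genes of the pathway were read from lists that do not hold the members. Of 5 genes of glucose and lactate transport above the floor on at least 1 array, 0 were past 2-fold on their brightest probe set, with a median log2 ratio of -0.05, or 0.08 over the 4 above it on both arrays. In this list, genes named after their values were seen stood on both sides. The glucose transporter SLC2A1 had -0.05, and SLC2A3, another, had -0.63, with -1.24 and at least 0.83 on its other probe sets above the floor. BSG and EMB, which escort lactate transporters to the cell surface, had 0.22 and 0.51, with at least 1.53 on the other EMB probe set. The lactate transporter SLC16A7 had -0.71 or lower on its brightest probe set. Its other probe sets passed the floor only in co-culture, by little, and had the higher signal there, with 122 against 119 and 117 against 43.5. Their ratios of -0.02 and -0.08 are negative only because the floor was higher for MM.1S alone. Of 12 genes of the HIF machinery, 0 were past 2-fold, and the median was 0.06. Of 19 further HIF targets, 2 were at least 2-fold higher and 1 lower (10.5% and 5.26%, against 3.16% and 4.51% of all genes), with a median of -0.01. SLC2A1 is in this list too. DDIT4, a stress-induced inhibitor of mTORC1, had 4022 in co-culture against 14545 alone (-1.85). HMOX1, the heme oxygenase, had 558 against 260 (1.10), and CA12, a carbonic anhydrase of the cell surface, had 292 against 94.2, a log2 ratio of at least 1.24. The other CA12 probe sets above the floor on an array had 0.42, at least 0.63 and -0.28 or lower. The largest differences of this list thus stood on both sides.

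Among 13 remaining enzymes of sugar metabolism above the floor, 0 were at least 2-fold higher and 4 at least 2-fold lower (30.8%, against 4.51% of all genes), with a median of -0.18. The 9 that passed the floor on both arrays had a median of 0.02 with 5 positive. ADPGK, the ADP-dependent glucokinase, was one of these at 0.66, and its other probe set had 833 in co-culture against 256 alone (named after its values were seen). FBP1, the gluconeogenic phosphatase that opposes phosphofructokinase, had 142 in co-culture against 472 alone (-1.73). PKLR, the liver and red cell pyruvate kinase, had 64.0 against 381, a log2 ratio of -1.72 or lower. PFKFB1, given above, and SHPK, the sedoheptulose kinase that feeds the pentose phosphate pathway (422 against 927, -1.14), were the others, SHPK named after its value was seen. All 4 rest on 1 probe set above the floor, and 2 of them, PKLR and PFKFB1, were below the floor in co-culture.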

How the data were processed

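Biotin-labelled RNA of MM.1S cells cultured with pDCs and of MM.1S cells alone was hybridised to 1 array each, grouped by sample title. Each probe set has 1 linear intensity value in the deposited table, which comes from MAS5 according to the submitters' processing notes; of its version and detection calls the labels say nothing. Both arrays share a mean signal through this scaling, which hides any shift that most transcripts have in common. Symbols came from the platform annotation (41037 of 41091 probe sets with 1 symbol matched a RefSeq gene of GRCh38.p14). Control probe sets were kept out of genes. The floor was the median of each array and the threshold of size 2-fold, with 1.5-fold beside it. The number of arrays limits the precision. Every member was named with its ratio or state. Outside the members, the rule named up to 3 genes per list past 2-fold, and other genes are marked as named after their values were seen. Members and lists were chosen with earlier results of these data known. Alternatives were median centring, quantile normalization, loess (span 0.3), other floors, and other uses of the probe sets. The calculation was tested on simulated data. Work was done in Python 3.11.15 (statsmodels 0.14.6, scipy 1.17.1, pandas 2.3.3, numpy 2.4.6), with figures by matplotlib 3.10.9.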

Additional observations from a re-analysis of the deposited data

How the results depend on the processing

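Each result was recomputed under 9 alternatives for which it had a value. Of 37 members with a ratio, 31 kept their sign under all of them. HK2, TPI1, PGK1, ENO1, RPE and VEGFA did not. The median log2 ratio of glycolytic enzymes became 0.10 after quantile normalization, 0.13 with the mean over probe sets and 0.12 with the median over probe sets above the floor. The count of glycolytic enzymes at least 2-fold higher was 0 with a floor at the 70th percentile. Without x_at and s_at probe sets, which left 10 glycolytic enzymes and no probe set of PFKFB3, 0 were at least 2-fold lower and 5 were positive. The same setting gave pentose phosphate enzymes a median of 0.38 over 5 genes, with 3 of the 4 above the floor on both arrays positive, and left 5 of 7 HIF targets and regulators positive. The mean over probe sets left 0 HIF members at least 2-fold lower. A threshold of 1.5-fold was passed by 6 members, against 3 at 2-fold. Over all genes, 456 were at least 2-fold higher and 650 lower. The counts were 1502 and 1920 with a floor at the 30th percentile, 187 and 199 at the 70th, 2365 and 2776 with none, and 232 and 307 with the mean over probe sets. The causes were not tested. Fewer genes or probe sets remain under some settings. The mean over probe sets also takes in those below the floor on both arrays, with both signals set to the floor. Signals near the floor limit PFKP, PFKFB4 and FBP1. The HK1 signal in MM.1S alone (254) was also low, below the 70th percentile of that array (288). No paired analysis was possible because each group has 1 array.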

Other observations

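Of 12 genes that carry pyruvate onward into the mitochondria (its import, the pyruvate dehydrogenase complex and its kinases and phosphatases), 0 were past 2-fold by ratio or bound and the median log2 ratio was -0.28. PDK4, a kinase that switches the complex off, had 31.7 in co-culture against 163 alone and has only a bound of -0.49 or lower. Genes named after their values were seen, PDK4 among them, stood on both sides: DLD and DLAT, the E3 and E2 subunits of the complex, had 0.78 (5575 in co-culture against 3256 alone) and 0.67 (2331 against 1462), while MPC1 and MPC2, the pyruvate carrier of the inner membrane, had -0.44 and -0.36. The dimmer probe sets of DLD and DLAT were positive and that of MPC2 negative. Of 13 genes of the tricarboxylic acid cycle, 0 were past 2-fold, 8 were positive and the median was 0.03. Among all genes, 3.16% were at least 2-fold higher and 4.51% lower, and the median was -0.04. Of all genes above the floor on both arrays, 47.7% were positive. Also named after their values were seen, IDH3A and SUCLG2 had 0.76 and 0.72, and SDHA and MDH2 had -0.51 and -0.42. Other probe sets gave -0.13 and at least 0.86 for IDH3A, 0.50 and 0.70 for SUCLG2 and 0.56 for MDH2.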
